A study of Homo sapiens with 2 samples.

Results

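KRR1 and PHLDA1 are neighbouring protein-coding genes on chromosome 12, and 60 of the 44771 APC peaks in HCT-116 cells carried one of their names. The members were all peaks whose named gene was KRR1 (32 peaks) or PHLDA1 (28 peaks). Both genes were chosen by their number of peaks in this list, and so the peak counts and densities below are descriptions and were not tested. HCT-116, an established cell line from a human colon carcinoma, is labelled APC wild-type, CTNNB1{delta}Ser45, a genotype in which β-catenin resists degradation. Both libraries came from these cells, for which no treatment is stated: 1 chromatin immunoprecipitation with a polyclonal antibody to the C-terminal end of APC, and 1 pre-cleared input without antibody. With 1 library of each kind, no value has a replicate error. One peak list in hg19 coordinates was analysed, and it holds no read counts, so the depth behind each peak is unknown.

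APC is best known as the scaffold on which β-catenin is marked for destruction in the WNT pathway, and it also enters the nucleus. KRR1 encodes a nucleolar component of the small-subunit processome, the assembly that processes the precursor of 18S ribosomal RNA and was worked out mainly in yeast. PHLDA1, also called TDAG51, encodes a pleckstrin homology-like domain protein that is induced by growth factor and stress signals, has been tied to cell death, and has been described as a marker of epithelial stem cells in the intestine. The list also labels the repeat, if any, at each peak centre. SINEs are short interspersed elements, of which the primate Alu family is the most numerous.

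The start sites of both genes were covered by a peak. The sequences around the starts are shown because these are the places where a peak name refers to the gene itself. They run from 250 bases before the start through the first 10 transcribed bases, taken from RefSeq on GRCh38.p14, where both members matched the table. Capitals mark matches to 6 motifs searched on both strands.
KRR1: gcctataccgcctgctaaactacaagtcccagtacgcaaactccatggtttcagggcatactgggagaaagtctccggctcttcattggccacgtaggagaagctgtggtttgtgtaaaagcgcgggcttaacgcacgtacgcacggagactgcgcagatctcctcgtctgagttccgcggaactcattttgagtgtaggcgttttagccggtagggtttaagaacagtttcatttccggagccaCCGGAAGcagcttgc
PHLDA1: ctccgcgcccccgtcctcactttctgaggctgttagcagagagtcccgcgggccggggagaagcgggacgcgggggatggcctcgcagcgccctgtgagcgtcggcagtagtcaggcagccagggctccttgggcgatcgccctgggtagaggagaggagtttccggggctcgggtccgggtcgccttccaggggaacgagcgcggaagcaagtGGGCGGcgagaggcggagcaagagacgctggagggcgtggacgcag
The KRR1 window is chr12:75511600-75511859 and the PHLDA1 window is chr12:76031767-76032026, both GRCh38.p14 on the minus strand. These coordinates are not on the build of the peaks, and the start sites of the 2 builds need not be the same base.

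The KRR1 window held 1 match to the ETS motif CCGGAAG, beginning 5 bases before the start, and 9.12% of 35116 RefSeq promoter windows of this length held that motif. The PHLDA1 window held 1 GC box, GGGCGG, beginning 36 bases before the start, a motif found in 43.1% of the windows. Neither window held the TCF/LEF motif CTTTGAT (2.36% of windows), the AP-1 motif TGANTCA (6.92%), the cyclic AMP response element TGACGTCA (1.80%) or the TEAD motif GGAATG (12.5%). The PHLDA1 window was the richer in G and C, at 70.4% with 28 CpG sites, against 53.1% with 18 CpG sites for KRR1 and medians of 58.1% and 11 over all windows.

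The peak at the KRR1 start (chromosome 12, 75904783 to 75905905) was annotated as a promoter peak. It was 1124 bp long, and its centre lay 74 bp downstream of the start. No other peak lay within 10 kb of the KRR1 start, and no peak named for KRR1 was centred farther into the gene. The remaining 31 KRR1 peaks were all upstream, from 15204 to 259208 bp away, and all were intergenic. Thus 1 of 32 peaks named for KRR1 was placed at that gene.

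PHLDA1 differed in having a group of peaks around the gene. The peak over its start (76423736 to 76426746) was 3012 bp long and was centred 315 bp downstream in exon 1 of 2. A 744-bp peak lay in the 3′ UTR, in exon 2, 4106 bp downstream of the start. Farther downstream, 3 intergenic peaks of 1807, 1566 and 1738 bp lay 8073, 11826 and 13831 bp from the start. These 5 peaks formed a group 15.9 kb wide, and peaks covered 55.8% of it. All 28 PHLDA1 peaks lay downstream of the start. On the upstream side the list was bare for 50.7 kb, as far as the peak at the start of NAP1L1, a nucleosome assembly protein gene.

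The names of the other peaks followed the nearer start site. Both genes are read from the minus strand and their starts lay 520138 bp apart (75905418 and 76425556, from the peak centres and listed distances), so the same stretch is upstream of KRR1 and downstream of PHLDA1. The name changed at the midpoint, between a 1113-bp peak ending at 76165182 and a 1222-bp peak starting at 76165414. Their centres lay 259208 bp from the KRR1 start and 259532 bp from the PHLDA1 start. The members are therefore described below as 1 stretch of 521963 bp (75904783 to 76426746). Every peak of the list in it carried one of the 2 names. The deposited annotation named no further gene there. RefSeq on the newer build lists 10 genes between KRR1 and PHLDA1, none of them protein-coding, with 5 long non-coding RNA genes (among them LOC105369844, LOC107984533, LOC124902969 and LOC105369847) and 5 pseudogenes (among them PGDP2 and LOC100289143). None of these 10 was named for any peak of the list. No peak carried the name of the neighbouring non-coding genes GLIPR1-AS1, PHLDA1-AS1 or PHLDA1-DT either. Whether the annotation used for the list holds these names is unknown, so nothing is read from their absence.

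**Figure D1:**
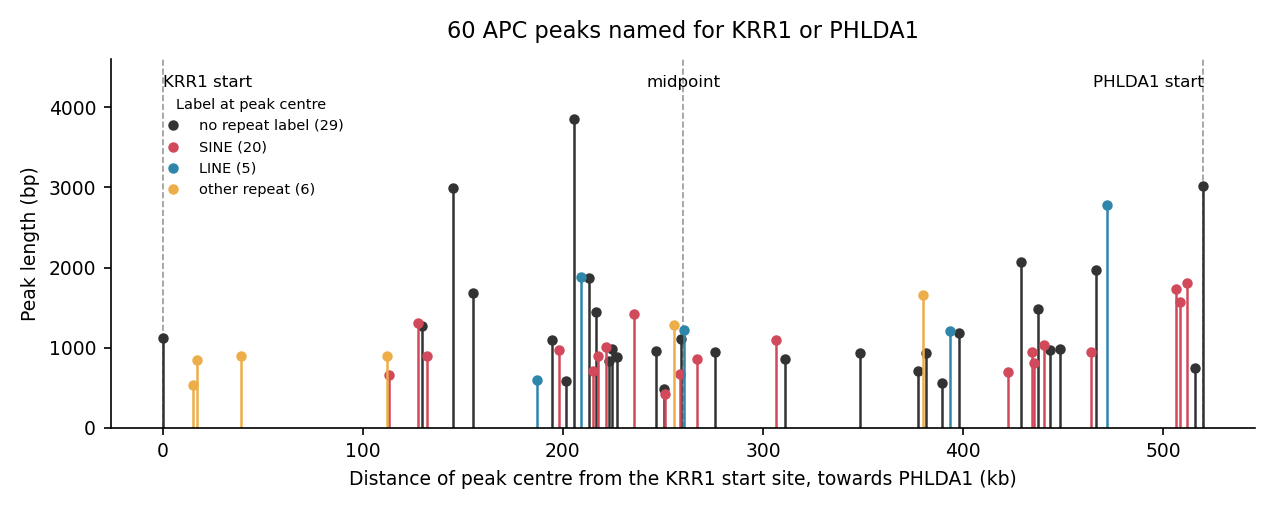
Each vertical line is 1 of the 60 peaks, placed by the distance of its centre from the KRR1 start site in kb towards PHLDA1, with its length in bp as the height and the repeat label at its centre as the colour. Peaks stand in groups with bare intervals between them, and the longest, at 3848 bp, stands 206 kb from the KRR1 start.

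Peaks were crowded and unevenly placed. When the distance between the starts was cut into 10 equal parts, counted from KRR1, the fifth part, just before the midpoint, held 16 peaks. The second part held 0 and the seventh held 1. The ninth held 10, and the other 6 parts held 4 to 7 each. The stretch held 115 peaks per Mb and peaks covered 13.9% of its bases, against 16.7 peaks per Mb and 2.68% for chromosome 12 between its first and last peak. That is a ratio of 6.89 in peaks per Mb.

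The flanks did not share this density. The same length of sequence before the KRR1 peaks held 6 peaks (11.5 per Mb), named for 4 genes. The same length after the PHLDA1 peaks held 10 (19.2 per Mb), named for 3 genes. GLIPR1, the protein-coding gene next to KRR1 on its far side, was named for 2 peaks of 579 and 619 bp, both centred in Alu elements. Its relatives GLIPR1L1 and GLIPR1L2 were named for 2 and 1 peaks, and CAPS2 for 1 promoter peak of 1282 bp. On the other side, NAP1L1 was named for a single 1805-bp peak in its 5′ UTR, 362 bp downstream of its start. After that peak the list was bare for 248 kb, up to the first of 4 peaks named for BBS10, a gene of the Bardet-Biedl chaperonin-like complex. OSBPL8, which encodes an oxysterol-binding protein relative, was named for 7 peaks in all.

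Gaps between neighbouring peak centres had a median of 3949.5 bp (95% order-statistic interval 3142.5 to 5351, n = 59 gaps). They ran from 566.5 to 73208 bp, with quartiles of 2281 and 8814 bp. Of the 59 gaps, 37 were at most 5 kb, whereas 12.6% of all 44747 gaps in the list were that short. The median gap was 23.2 kb over the whole list and 23.2 kb on chromosome 12. Among the KRR1 peaks the median gap was 3519.5 bp, and among the PHLDA1 peaks it was 4457.5 bp. These spacings follow in part from the choice of genes with many peaks, so nothing is read from their size.

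The gaps were far from equal. Their SD was 1.42 times their mean, against 2.26 times on chromosome 12 and 4.23 times over the whole list. Those wider sets mix dense and sparse regions, whereas this stretch was chosen for its many peaks. The ratios therefore do not show whether its unevenness is usual for a stretch of this size. Its 8 gaps over 20 kb made up 54.6% of the distance between the outermost centres. The widest, 73.2 kb, separated the peak 39.1 kb from the KRR1 start from the next one at 112 kb. The next widest were 37.7 kb and 34.4 kb, both in the PHLDA1 part of the stretch. At the other extreme, 11 neighbouring pairs had edges within 500 bp of each other, and the closest pair was separated by 34 bp. The share of such pairs over the whole list is not given here, so nothing is read from their number. Whether such pairs are separate regions or single ones split by the caller cannot be told apart from this list. Merging them left 49 regions.

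**Figure D2:**
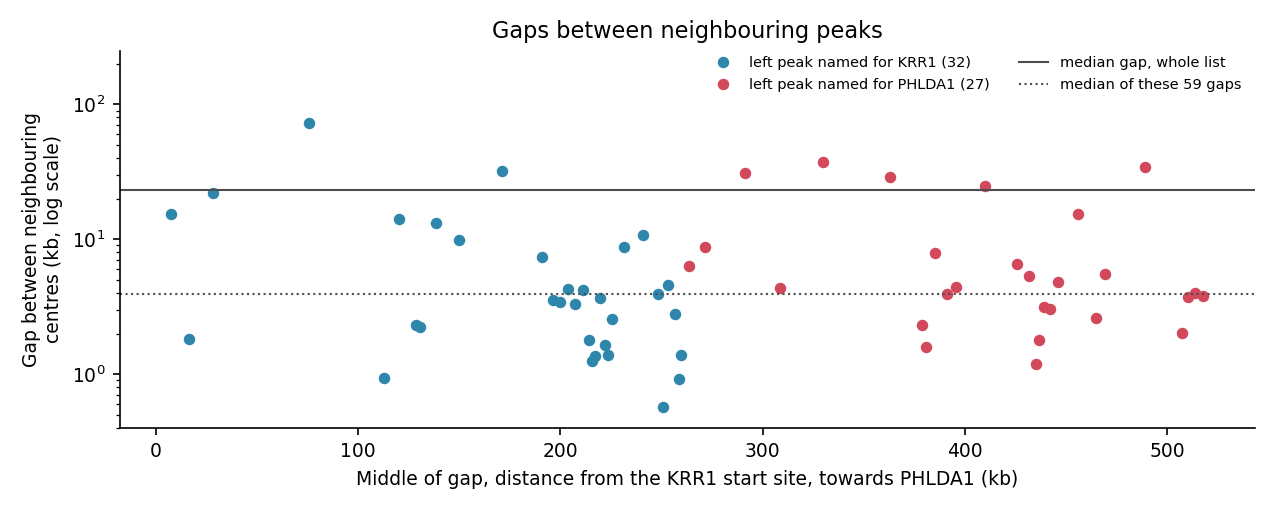
Each point is 1 of the 59 gaps between neighbouring peak centres, in kb on a log axis, placed at the middle of the gap in kb from the KRR1 start site. The solid line is the median gap of the whole list (23.2 kb) and the dotted line that of these gaps (3949.5 bp); the points form low groups set apart by 8 gaps over 20 kb.

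When neighbouring centres at most 10 kb apart were joined, the 60 peaks formed 14 runs, of which 3 were single peaks. The 5 runs with at least 5 peaks held 43 of the 60. The largest run (76092192 to 76141849) lay 187 to 236 kb upstream of the KRR1 start and held 15 peaks over 49.7 kb. Of these 15, 8 had no repeat label and 5 were centred in SINEs. This run contained the longest peak of the stretch, 3848 bp (76109222 to 76113068), 205727 bp upstream of the KRR1 start and without a repeat label. Next to it stood a 1883-bp peak centred in an L1ME3 element and a 1864-bp peak without a label.

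The run across the midpoint (76151402 to 76181666) held 9 peaks over 30.3 kb, 6 named for KRR1 and 3 for PHLDA1, so the naming cut through it. Its peaks were short, with a median of 942 bp and a longest of 1280 bp. It held the shortest peaks of the stretch, 428 bp (centred in a MamSINE1 element) and 479 bp (no label), which were the closest pair by centres at 566.5 bp.

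In the PHLDA1 part, a run of 6 peaks lay over 21.2 kb (76282665 to 76303892). None of its 6 peaks was centred in a SINE, and its longest, 1662 bp, was centred in MER31A, an endogenous retrovirus repeat. A run of 8 peaks lay over 26.8 kb (76327626 to 76354376), with 4 centred in SINEs and 4 unlabelled, the longest 2063 bp. The last of the 5 was the run of 5 peaks at the PHLDA1 gene itself. The 5 runs had similar densities, from 283 to 315 peaks per Mb, and median gaps of 3142.5 to 3949.5 bp, although the joining rule itself bounds the gaps within a run at 10 kb.

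The remaining 9 runs, the lone peak at the KRR1 start among them, were smaller. Near KRR1, peaks of 535 and 847 bp centred in the MaLR-type LTRs MLT1F and MLT1G lay 15204 and 17035 bp upstream of the start. An 892-bp peak at 39085 bp was centred in MER130, an ancient repeat whose class the list gives as unknown. Beyond the widest gap, a pair of 896 and 662 bp began the denser part of the stretch. It was followed by a run of 3 peaks of up to 1308 bp and by a pair of unlabelled peaks of 2986 bp (76049043 to 76052027) and 1679 bp, 145117 and 155055 bp upstream of the KRR1 start. In the PHLDA1 part, a run of 3 peaks, 48206 to 56352 bp downstream of the start, included a 2777-bp peak centred in an L2a element and a 1963-bp peak without a label. A pair of 1097 and 853 bp and a lone 928-bp peak lay 171550 to 213572 bp from the PHLDA1 start, between the run across the midpoint and the run of 6.

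Peaks in the stretch were mostly short. The shortest of the 60 was 428 bp and the longest 3848 bp, and the median was 975.5 bp (95% order-statistic interval 898 to 1177). The median was 962.5 bp for KRR1 (interval 847 to 1274) and 1006 bp for PHLDA1 (interval 928 to 1478), and these intervals overlap. Of the 60, 16 reached the median of the whole list, 1350 bp, which 50% of all peaks reach by definition. Because most members were intergenic, intergenic peaks are the closer background. Of the 57 intergenic members, 15 reached 1350 bp (26.3%, exact 95% interval 15.5 to 39.7), against 44.3% of all 16173 intergenic peaks. Their median was 968 bp (interval 898 to 1177) against 1237 bp (interval 1222 to 1251). The flanks also had low medians. The 6 peaks of the flank before the stretch had a median of 779 bp, and the 10 of the flank after it 963 bp. However, 5 of those 6 and 6 of those 10 were centred in SINEs, a label with a median of 889 bp over the whole list. The flank peaks without a label were 1282, 1805 and 2646 bp long. The flank medians therefore do not show whether short peaks are particular to the stretch. Only 1 peak in each flank was intergenic. Peaks of 1 library are not replicates, and these intervals cover counting error only.

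By repeat label, the medians lay farthest apart, in bp, for peaks without a label. Unlabelled means only that no repeat was named at the centre, so a peak labelled as a CpG island would count as unlabelled. The 26 unlabelled intergenic members had a median of 984 bp (interval 928 to 1443), whereas all 5427 unlabelled intergenic peaks of the list had one of 1592 bp (interval 1566 to 1625). For SINE-centred peaks the values lay close together, at 946 bp for the 20 members (interval 807 to 1097) and 892 bp for all 7285 (interval 879 to 907). Within the list as a whole, unlabelled intergenic peaks were thus longer than SINE-centred ones by their medians, and in this stretch the intervals of the same medians overlapped. No test was made of that difference.

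**Figure D3:**
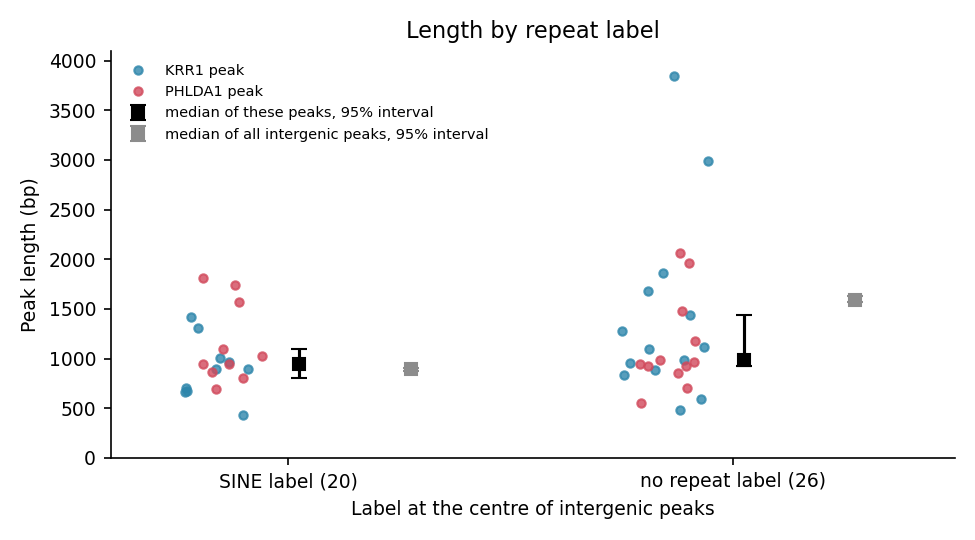
Points are the lengths in bp of intergenic members with a SINE label (20) or no repeat label (26), coloured by the named gene; black squares are their medians and grey squares the medians of all intergenic peaks with that label, with 95% order-statistic intervals. The unlabelled members sit mostly below the grey median of 1592 bp, and the SINE-centred members lie around the grey median of 892 bp.

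Long peaks stood in both the KRR1 and the PHLDA1 part, but unevenly. In all, 13 members were 1500 bp or longer. None of them lay before the one centred 145 kb from the KRR1 start, or between those at 213 and 380 kb. Of the 57 intergenic members, 12 were that long (21.1%, exact 95% interval 11.4 to 33.9), against 38.2% of all intergenic peaks. Of those 12, 6 had no repeat label and 3 were centred in SINEs, all 3 in the group just downstream of PHLDA1 (AluJr, MIRc and AluSq2). The label shares of all intergenic peaks of that length are not given here, so these label counts are descriptions. The 3848-bp and 3012-bp peaks were followed by those of 2986, 2777 and 2063 bp already placed above.

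The shares of the 5 main labels lay within counting error of those of all intergenic peaks. No repeat was labelled at 26 of the 57 intergenic members (45.6%, exact 95% interval 32.4 to 59.3), against 33.6% of all intergenic peaks, a value inside the interval. SINEs labelled 20 members (35.1%, interval 22.9 to 48.9), against 45% of all intergenic peaks, again inside the interval. The SINE count was 10 for each gene, or 31.2% of all 32 KRR1 peaks (interval 16.1 to 50.0) and 35.7% of all 28 PHLDA1 peaks (interval 18.6 to 55.9). Unlike the other shares here, these include the peaks that were not intergenic. LINEs labelled 5 members (8.77%, against 8.29%), LTR elements 3 (5.26%, against 9.16%) and DNA transposons 2 (3.51%, against 1.87%). The 5 LINE labels were L2a at 2 peaks and the old L1 elements L1ME3, L1ME3B and L1ME4a at 1 each. The DNA transposons were MER20 and MER5A. The remaining label, of unknown class (MER130), stood at 1 member (1.75%, interval 0.0444 to 9.39). Among all intergenic peaks 4 had that class (0.0247%), this member included, a share outside the interval. A class that rare falls outside whenever it labels 1 member, so nothing is read from this.

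**Figure D4:**
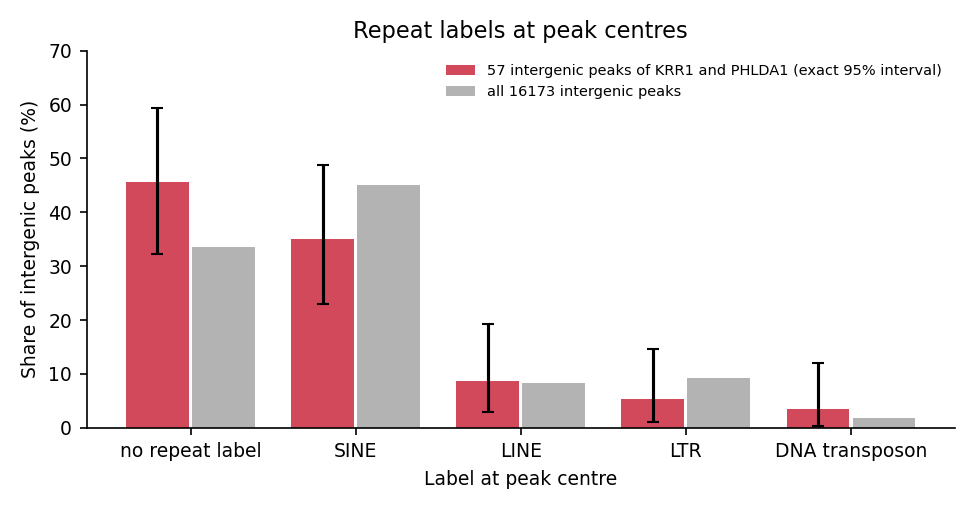
Bars give the share in percent of the 57 intergenic members (red, with exact 95% intervals) and of all 16173 intergenic peaks (grey) that carry each label at the peak centre. The grey value lies inside the red interval for each of the 5 labels, including SINEs (35.1% against 45%) and no label (45.6% against 33.6%).

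Among SINE-centred members, the Alu subfamilies were mostly AluS, which labelled 14 of the 20 (70%, exact 95% interval 45.7 to 88.1), against 60.3% of all SINE-centred intergenic peaks. AluJ, the oldest Alu subfamily, labelled 3 (15%, against 13.1%), and MIR, an older mammalian SINE, 1. The most frequent single elements were AluSx1 and AluSz, with 3 peaks each.

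Density and length were set beside those of other genes with many peaks. On a single chromosome, 26 genes were named for at least 20 peaks. By peaks per Mb between the first and the last peak, KRR1 (123) and PHLDA1 (107) stood 3rd and 4th among them, after ERRFI1 (131), an inhibitor of the EGF receptor, and the non-coding gene LOC100507065 (127). By likeness of this density on the log2 scale, LOC100507065, ERRFI1 and the microRNA gene MIR8066 (82.4 peaks per Mb) were, in that order for KRR1 and for PHLDA1, the nearest of these genes with both members left out. The differences were 0.05, 0.09 and 0.58 from KRR1 and 0.24, 0.29 and 0.38 from PHLDA1. The members themselves stood 0.20 apart.

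Peak lengths varied among the genes nearest in density. The median length was 3485 bp for ERRFI1, the longest of the 26, and 1290.5 bp for LOC100507065, against 962.5 bp for KRR1 (19th) and 1006 bp for PHLDA1 (17th). As a result, peaks covered 42.6% of the ERRFI1 stretch but 14.2% of the KRR1 and 13.6% of the PHLDA1 part. TRIB1, a pseudokinase gene, had 66.5 peaks per Mb with a median length of 2634 bp, and FAT1, a cadherin gene, had 71.3 with 1192 bp. PCDH7, a protocadherin gene, had 24.7 peaks per Mb, with a median length of 785 bp and SINE labels at 58.6% of its peaks. The MIR8066 peaks had a median of 738 bp, and 8% of them were intergenic, against 96.9% for KRR1 and 92.9% for PHLDA1.

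**Figure D5:**
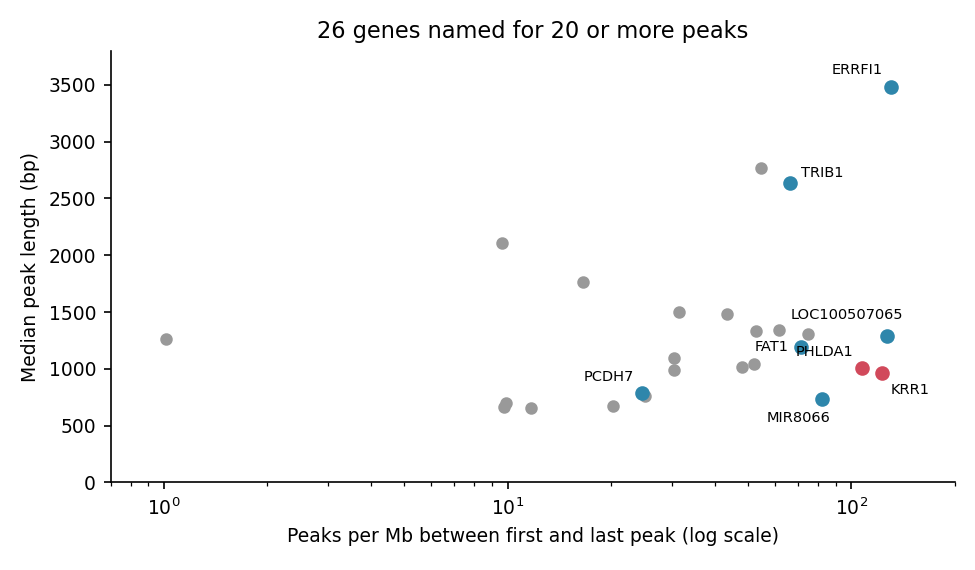
Each point is 1 of 26 genes named for at least 20 peaks on a single chromosome, by peaks per Mb between first and last peak (log axis) and median peak length in bp; KRR1 and PHLDA1 are red and the named comparison genes blue. ERRFI1 lies at a similar density with a median of 3485 bp, whereas KRR1 and PHLDA1 lie at 962.5 and 1006 bp.

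Windows of the length of the stretch were also started at each of the 44771 peak centres. Their median count was 14 peaks, and 6 windows held 60 or more. After overlapping windows were removed, 2 were left: the KRR1 and PHLDA1 stretch with 60 peaks, and a window on chromosome 4 with 63 peaks, all named for PCDH7. They differed in annotation, since 95% of the peaks in the first and 6.35% of those in the second were intergenic, and their median lengths were 975.5 and 836 bp. The count was the value by which the genes were chosen, so this rank is a description.

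No immunoprecipitation with a control antibody was among the libraries analysed here. Binding of APC and general recovery of this chromatin therefore cannot be told apart, for the stretch as for the rest of the list.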

How the data were processed

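The members and lists were chosen with earlier results of these data known. Groups were taken from the sample titles: 1 APC ChIP and 1 input library. Chromatin was sonicated and digested with micrococcal nuclease, per the labels' protocols. MACS2 and hg19 are named in the submitters' processing notes; its version, the aligner, the threshold, any use of the input and the handling of multiply mapping reads were not given in the sources used here. In all 44771 rows the deposited score equals end minus start plus 2 bp so it was used as the peak length. Per the file headers, each row has an annotation, a repeat-aware annotation and a distance to the start site. Peak centre plus distance gave a single start site for KRR1 and for PHLDA1, so distances were read as measured from the centre.

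Members were the peaks named for KRR1 or PHLDA1. Gaps, lengths, labels and densities were computed with Python 3.11.15, numpy 2.4.6, pandas 2.3.3 and scipy 1.17.1, and plotted with matplotlib 3.10.9. Medians have 95% order-statistic intervals and shares exact Clopper-Pearson intervals, which cover counting error only. No test was made. The functions were checked on simulated peaks. Named genes were the members, genes named for peaks around them, their 3 nearest RefSeq genes on each side, PCDH7, TRIB1 and FAT1, and for each member the 3 genes of at least 20 peaks, other than the members, nearest in density. RefSeq (GRCh38.p14) gave sequences, names and gene order only; motifs under the distal peaks were not analysed here.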

Additional observations from a re-analysis of the deposited data

How the results depend on the processing

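Leaving out peaks shorter than 1350 bp left 16 members, with a median gap of 8313.5 bp and a median length of 1835.5 bp, as the setting selects on length. Their density, 42.4 peaks per Mb, was taken between the first and last of the 16 (76049043 to 76426746). That is shorter than the 521963 bp behind the 115 peaks per Mb of all members, so these 2 densities have unlike denominators. Under this setting the SINE share of the members minus that of the list was 2.08 percentage points, against -5.41 with all peaks, -12.5 with peaks within 500 bp merged, -9.96 among intergenic peaks and -7.37 against chromosome 12. Without SINE-centred peaks 40 members were left, and the median gap was 6686 bp. The median gap between peak edges was 2693 bp. Joining at 5 kb gave 23 runs and at 20 kb 9, against 14 at 10 kb. Merging peaks within 500 bp gave 49 members and a median length of 1101 bp. The window of the rule held the same 60 peaks. No paired analysis was possible because the study has 1 library of each kind. Depth limits every value, as the list holds no read counts.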

Other observations

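AluY, the youngest Alu subfamily, labelled 0 of the 20 SINE-centred members, which allows a share of up to 16.8% by the exact 95% interval and 15% by a count of 3, whereas it labelled 21.9% of all 7285 SINE-centred intergenic peaks. MamSINE1, an old mammalian SINE, labelled 2 of the 20; SINEs other than Alu and MIR labelled 0.824% of all SINE-centred intergenic peaks. Both were singled out after their values were seen, peaks of 1 library are not replicates, and neither difference was tested.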
